A study of Mus musculus with 9 samples.

Results

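The genes described are 10 growth factors and receptors of 3 families, out of 31232 genes counted in bEnd.3 cells under flow. They are the FGF ligands Fgf2 (ENSMUSG00000037225) and Fgf23 (ENSMUSG00000000182) with the receptors Fgfr1 (ENSMUSG00000031565) and Fgfr3 (ENSMUSG00000054252), the PDGF ligands Pdgfa (ENSMUSG00000025856) and Pdgfb (ENSMUSG00000000489), and the EGF-family ligands Hbegf (ENSMUSG00000024486), Areg (ENSMUSG00000029378) and Ereg (ENSMUSG00000029377) with the receptor Egfr (ENSMUSG00000020122). Fgf23 was picked for its high level in the Vortex group, and the other 9 were picked by role. The Vortex values of Fgf23 are therefore given as a description with no test, and counts of genes called in Vortex comparisons are over the other 9.

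The study asked how flow of the kinds found around an intracranial aneurysm affects endothelial cells. bEnd.3 is an established mouse brain endothelial line, immortalised with polyoma middle T antigen, and all samples were this line, with no genetic difference between groups. Cells on glass coverslips were placed in a parallel-plate flow chamber. The PSS group had laminar flow at 10 dyne/cm2, the shear taken as normal for brain vessels. The HSS group had laminar flow at 20 dyne/cm2, standing for the early lesion. The Vortex group had vortex flow at 0.5 to 2 dyne/cm2, standing for the late lesion. Each group had 3 libraries of polyadenylated RNA. Flow pattern and shear level changed together in the Vortex group and cannot be told apart. No static culture was analysed here, and the sources used here do not give the time under flow.

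FGF, PDGF and EGF-family ligands are secreted or shed proteins that bind receptor tyrosine kinases, which then activate the RAS-ERK kinase cascade. In vessels, endothelial cells are a main source of PDGF-B, which draws in pericytes that carry its receptor PDGFRβ, and FGF2 is a classical angiogenic factor. Amphiregulin, epiregulin and HB-EGF are made as membrane precursors and are cut free by the protease ADAM17 to act on EGFR. FGF23 is a phosphate-lowering hormone made mainly by osteocytes, and it signals through FGF receptors together with the co-receptor Klotho.

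Libraries held 17407217 to 22965802 counts, and 15774 genes were tested. Vortex replicate 2 stood apart: Pearson correlations of log2 counts scaled to library size (CPM) between libraries of a group were 0.977 to 0.992 in PSS, 0.992 to 0.993 in HSS and 0.852 to 0.962 in Vortex. Its summed CPM of 12 endothelial markers was 7936, against 1376 and 1870 in Vortex replicates 1 and 3, 2726 to 3483 in PSS and 947 to 978 in HSS. Its differences from PSS also ran with the GC content of transcripts, so every result below is given with and without this library where it matters. No label says that the libraries of a group came from separate cultures, and the RNA is described as mixed, so p-values measure only the spread between these libraries. An exact permutation test of 3 libraries against 3 cannot give a p below 0.1. Adjusted p-values below come from edgeR (quasi-likelihood F test), were adjusted by Benjamini and Hochberg's method across the 15774 genes, and called a gene when under 0.05. In RNA from whole cultures, fewer cells of a kind and less RNA per cell cannot be told apart.

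Promoter windows of 2 genes are shown because Fgf23 had the widest range of CPM on the log scale and because Areg was the single member whose window held a cyclic AMP response element. Each is the 250 bases before the RefSeq start of the gene on GRCm38.p6, plus strand, 5′ to 3′, at chr6:127072652-127072901 for Fgf23 and chr5:91139349-91139598 for Areg. Capitals mark a match to a searched motif.
Fgf23: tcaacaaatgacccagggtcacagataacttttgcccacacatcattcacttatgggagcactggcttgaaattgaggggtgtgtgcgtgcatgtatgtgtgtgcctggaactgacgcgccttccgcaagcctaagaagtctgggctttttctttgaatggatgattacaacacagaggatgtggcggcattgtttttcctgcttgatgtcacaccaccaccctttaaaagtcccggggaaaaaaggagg
Areg: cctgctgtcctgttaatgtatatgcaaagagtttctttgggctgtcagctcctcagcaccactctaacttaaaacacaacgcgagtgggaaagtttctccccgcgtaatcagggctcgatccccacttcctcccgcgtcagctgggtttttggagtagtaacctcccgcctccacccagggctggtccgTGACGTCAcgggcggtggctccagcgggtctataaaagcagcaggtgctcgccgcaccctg
RefSeq windows were found for 6 of the 10 genes, 8 windows in all, and were searched on both strands for 4 motifs chosen after the values were seen. These were the shear stress response element GAGACC (in 13.69% of all 32851 windows), the AP-1 site TGANTCA (6.749%), the cyclic AMP response element TGACGTCA (1.546%) and the EGR1 site GCGNGGGCG (4.697%). The match in Areg began 61 bases before the start. An EGR1 match lay 47 bases before the start of Fgf2 and another 63 bases before one start of Fgfr3. The windows of Fgf23, Pdgfa and Egfr and the second window of Fgfr3 held none of these letters. A match is a description of the sequence, not a bound site. Pdgfb, Ereg, Hbegf and Fgfr1 had no entry.

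Levels per length were compared in FPKM. In PSS the ligands Areg (40.1 ± 5.07, SD, n = 3), Pdgfa (36.5 ± 1.95) and Ereg (34.5 ± 9.96) had the highest mean FPKM, and each overlapped the next in that order. Hbegf (11.3 ± 4.63) and Pdgfb (11.2 ± 3.95) came next and overlapped, followed by Fgfr1 (5.55 ± 1.48). Fgf2 (0.670), Fgfr3 (0.457), Fgf23 (0.093) and Egfr (0.039) were each below 1 FPKM and did not overlap with their neighbours in the order. The 3 EGF-family ligands were present at 11.3 to 40.1 FPKM in PSS, where their receptor Egfr had 6 to 11 counts per library.

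In HSS the order changed at the top and in the middle. Ereg led at 125 ± 2.23 FPKM (n = 3), followed by Areg (58.3 ± 2.20) and Pdgfa (50.2 ± 1.39), with no overlap between neighbours. Pdgfb, at 2.45 ± 0.126, lay below Fgfr1 (3.80 ± 0.231) and overlapped with Fgf23 (2.19 ± 0.222). In Vortex each of the first 6 ligands, Pdgfa (64.9), Ereg (58.4), Areg (45.1), Fgf23 (27.8), Pdgfb (22.0) and Hbegf (10.9), overlapped with its neighbour in the order. As a ratio of highest to lowest the widest range there was that of Fgf23, 0.144 to 55.1 FPKM.

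**Figure D1:**
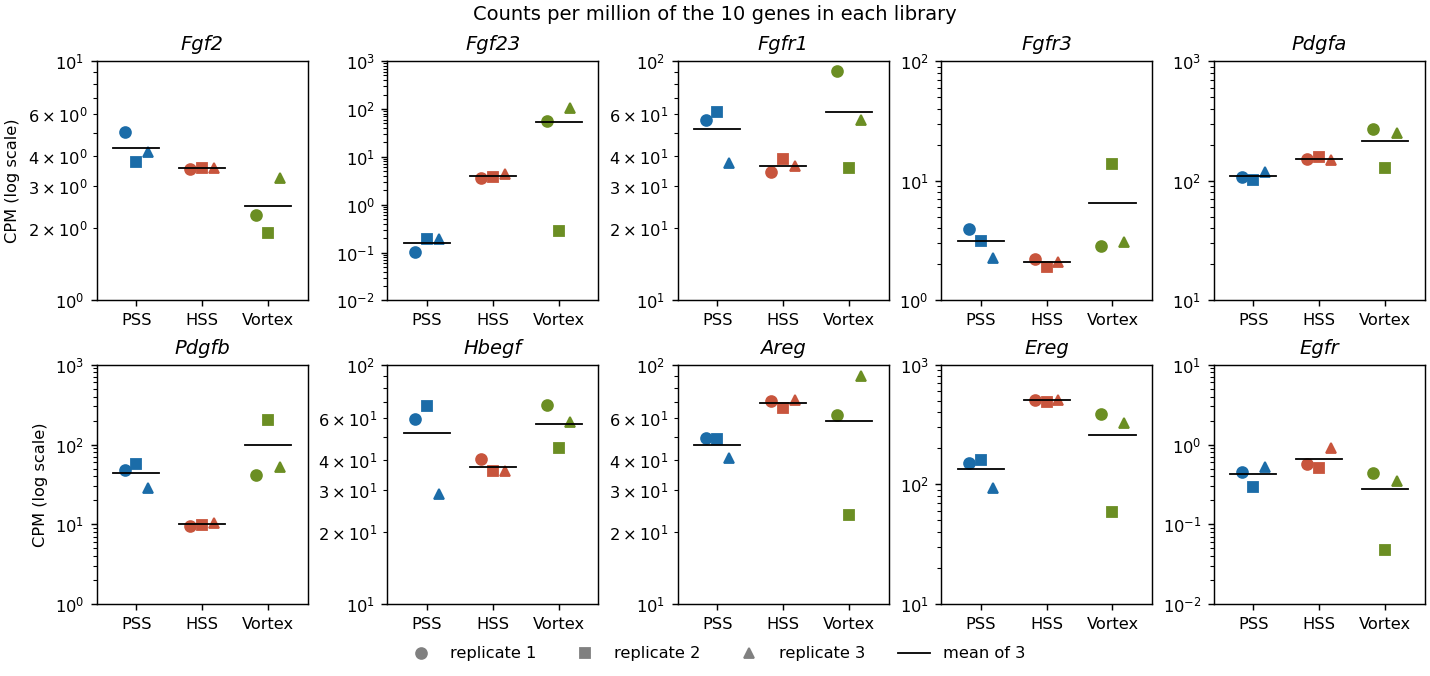
CPM of each of the 10 genes (log scale, 1 panel per gene) in PSS, HSS and Vortex, with 1 point per library shaped by replicate number and a line at the mean of the 3 libraries. The HSS libraries lie close together in each panel but that of Egfr, whereas Vortex replicate 2 (square) lies far from the other Vortex libraries for Fgf23, Pdgfb, Ereg, Areg, Fgfr3 and Egfr.

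Fgf23 was nearly absent under physiological laminar flow and was read at a low level in HSS and at a high level in 2 of 3 Vortex libraries. PSS libraries 1 to 3 held 2, 4 and 4 counts of Fgf23 (0.101, 0.195 and 0.189 CPM). The HSS libraries held 75, 68 and 82 counts (3.54, 3.81 and 4.31 CPM). The Vortex libraries held 889, 6 and 2094 counts (56.1, 0.286 and 103 CPM). All HSS libraries lay above all PSS libraries, Vortex replicates 1 and 3 lay above every HSS library, and Vortex replicate 2 lay between PSS and HSS.

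As a ratio of scaled counts to the PSS group, Fgf23 stood at 23.8 in HSS, with a 95% interval for counting error only of 12.7 to 50.4. The ratio was 344, 1.75 and 635 in Vortex replicates 1 to 3. These ratios rest on 10 counts in the PSS group. Those of Vortex are given without intervals, because Fgf23 was picked for its Vortex level. The CPM of Fgf23 in Vortex replicate 2 was 279-fold below the mean of the other Vortex libraries. For Fgf23 the log2 difference of HSS from PSS was 4.53 ± 1.58 (SE), which did not pass the test with all 9 libraries (adjusted p = 0.120). With Vortex replicate 2 left out, whose spread enters the shared error of this gene, the difference was 4.52 ± 0.39 and Fgf23 rose (adjusted p = 2.58e-05). The PSS libraries that this test uses also entered the choice of Fgf23.

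Of 8 markers of osteoblasts and osteocytes, the cells that usually make FGF23, 2 passed the filter on low counts, and these 2 did not share a pattern. Runx2, an osteoblast transcription factor, had 15.6 to 22.1 CPM in PSS, 43.0 to 43.8 in HSS and 91.1, 5.81 and 63.6 in Vortex replicates 1 to 3, so it was lowest in the Vortex library where Fgf23 was lowest. Sost, which encodes the osteocyte protein sclerostin, had 60 to 98 counts in PSS, 0 or 1 in HSS and 0, 236 and 3 in Vortex, so it was highest in that same library. The summed CPM of the 8, made up mainly of Runx2 in all but Vortex replicate 2, was 18.7 to 27.6 in PSS, 43.4 to 44.1 in HSS and 92.1, 17.1 and 63.9 in Vortex. In HSS and in Vortex against PSS edgeR called 0 of the 2 with all 9 libraries, where 7.87% and 13.4% of all tested genes were called. There were 1 and 0 at an unadjusted p under 0.05, and DESeq2 and limma-voom called 0 in both. Without Vortex replicate 2 Runx2 rose and Sost fell in both, where 29.1% and 36.3% of all tested genes were called. The part of these 2 markers in the Fgf23 values was not tested. The defining osteocyte marker Dmp1 had 0 to 3 counts in every library, and Phex, an endopeptidase that restrains FGF23 in bone, had 0 to 11. Klotho (Kl), the co-receptor for FGF23, had 0 to 4 counts in every library.

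Fgf2, an angiogenic FGF that is released without a signal peptide, was lowest in Vortex. Its CPM was 5.05, 3.79 and 4.17 in PSS, 3.54, 3.59 and 3.58 in HSS and 2.27, 1.91 and 3.26 in Vortex. The 3 groups did not overlap, with PSS highest and Vortex lowest. The log2 differences of Fgf2 did not pass the test in HSS against PSS (-0.28 ± 0.29, adjusted p = 0.622), Vortex against PSS (-0.81 ± 0.29, 0.0981) or Vortex against HSS (-0.52 ± 0.29, 0.284). They did not pass without Vortex replicate 2 either, where Vortex against PSS was -0.64 ± 0.26 (adjusted p = 0.0799). In 2 alternatives Fgf2 fell in Vortex against PSS, by the DESeq2 Wald test (-0.83, adjusted p = 0.0324) and by limma on log2(FPKM + 1) (-0.32, 0.0486), and with the GC trend removed it was -0.35 (0.472).

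Fgfr1, the main FGF receptor of endothelial cells, had 56.7, 61.5 and 37.5 CPM in PSS, 34.6, 38.8 and 36.4 in HSS and 90.8, 35.8 and 56.6 in Vortex. HSS overlapped with PSS only through PSS replicate 3, and Vortex replicate 2 lay within the HSS range. No difference passed the test with all 9 libraries: the log2 difference of Fgfr1 was -0.50 ± 0.33 in HSS against PSS (adjusted p = 0.405), 0.23 ± 0.33 in Vortex against PSS (0.678) and 0.74 ± 0.33 in Vortex against HSS (0.187). Fgfr1 rose from HSS to Vortex by 1.01 ± 0.23 without Vortex replicate 2 (adjusted p = 0.0135).

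Fgfr3, a second FGF receptor kinase, was low in all but 1 library. It had 3.94, 3.11 and 2.27 CPM in PSS, 2.22, 1.91 and 2.10 in HSS and 2.84, 13.8 and 3.06 in Vortex. The high mean of the Vortex group came from replicate 2 alone, and the other Vortex libraries lay within the PSS range. The log2 difference of Fgfr3 in Vortex against PSS was 1.08 ± 0.58 (adjusted p = 0.251) with all libraries and -0.07 ± 0.29 (0.859) without replicate 2. In HSS against PSS it was -0.58 ± 0.59 (adjusted p = 0.623) and in Vortex against HSS 1.66 ± 0.60 (0.117), so no comparison passed.

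Of 20 other FGF ligands, 12 were in the table and 5 passed the filter on low counts. Fgf1, the broad-range ligand of all FGF receptors, fell in HSS (log2 difference -1.37 ± 0.34, adjusted p = 0.0430) and in Vortex (-1.37 ± 0.34, 0.0312) against PSS, from 8.76 to 9.25 CPM in PSS to 2.84 to 4.48 in HSS and 1.95 to 4.54 in Vortex. Fgf1 fell in both also without Vortex replicate 2 (-1.37 ± 0.21 and -1.08 ± 0.24, adjusted p = 0.00101 and 0.00680). Its call in Vortex against PSS was lost when only the 6 libraries compared were fitted, where 0 of the 5 ligands and 0.488% of all tested genes were called. The other 4 tested ligands, Fgf7, Fgf11, Fgf17 and Fgf18, passed in no comparison with all 9 libraries. So 1 of the 5 was called in HSS and in Vortex against PSS, where 7.87% and 13.4% of all tested genes were. Leaving out Vortex replicate 2, Fgf7 and Fgf11 rose in HSS against PSS (1.20 and 1.06 on the log2 scale, adjusted p = 0.0377 and 0.00587). In that fit Fgf7 rose and Fgf17 and Fgf18 fell in Vortex against PSS (1.32, -2.27 and -1.51, adjusted p = 0.0310, 0.0295 and 0.0428). With Fgf1, 3 and 4 of the 5 were thus called, where 29.1% and 36.3% of all tested genes were. In Vortex against HSS 1 of the 5 fell in that fit, where 23.9% were called. Among the other receptors and co-receptors, Fgfr2 had 0 to 2 counts, Fgfr4 0 to 3 and the β-Klotho gene Klb 0 to 5 in every library, and Fgfrl1, a receptor without a kinase domain, did not pass (log2 difference from PSS 0.80 ± 0.31 in Vortex, adjusted p = 0.119).

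Pdgfb separated HSS from both other groups. Its CPM was 48.0, 57.0 and 28.2 in PSS, 9.52, 9.81 and 10.5 in HSS and 41.3, 205 and 51.7 in Vortex. Every HSS library lay below every PSS and every Vortex library, Vortex replicates 1 and 3 lay inside the PSS range, and Vortex replicate 2 was the highest of the 9.

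Against PSS, Pdgfb was 4.46-fold lower in HSS, a log2 difference of -2.16 ± 0.58 that missed the threshold with all 9 libraries (adjusted p = 0.0544). The same difference had a smaller error without Vortex replicate 2, -2.16 ± 0.24, and Pdgfb then fell (adjusted p = 0.000121). From HSS to Vortex Pdgfb rose by 3.32 ± 0.61 on the log2 scale (adjusted p = 0.0180), and by 2.22 ± 0.26 without replicate 2 (adjusted p = 0.000518). That call of all 9 libraries was lost without HSS replicate 1, 2 or 3 (adjusted p = 0.110, 0.107 and 0.104) and when only the 6 libraries compared were fitted (0.0712). Against PSS, the Vortex group did not pass (1.16 ± 0.56, adjusted p = 0.199), and without replicate 2 the difference was 0.07 ± 0.25 (0.856).

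The summed CPM of the endothelial markers was also lowest in HSS. In HSS against PSS 8 of the 12 fell and none rose, where 7.87% of all tested genes were called. From HSS to Vortex 9 of the 12 rose and none fell, where 7.04% were called, but limma-voom called 3 and edgeR on only the 6 libraries compared called 0, where 0.438% of all genes were called (10 at an unadjusted p under 0.05, 8 by DESeq2 on all 9 libraries). Unlike the sum, the VEGF receptor gene Flt1 was lowest in PSS, with 178 to 258 CPM in PSS, 329 to 338 in HSS and 447 to 485 in Vortex. It was the 1 marker that rose in Vortex against PSS, where none fell and 13.4% of all tested genes were called. With only the 6 libraries compared, 0 of the 12 were called there, where 0.488% of all tested genes were. Without Vortex replicate 2 the counts were 10 fallen and 1 risen in HSS against PSS and 10 risen from HSS to Vortex. In Vortex against PSS they were 10 fallen and 1 risen, where Pdgfb itself did not pass. In that fit 29.1%, 23.9% and 36.3% of all tested genes were called, in the same order. VE-cadherin (Cdh5) had 450 to 577 CPM in PSS, 119 to 126 in HSS and 329, 1298 and 381 in Vortex replicates 1 to 3. The junction protein gene Cldn5 had 1110 to 1202 counts in PSS, 0 to 2 in HSS and 13, 7791 and 62 in Vortex. All 12 markers were read in at least 1 library, and none was at 0 throughout. The part of these markers in the Pdgfb differences was not tested.

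Pdgfa, which signals through PDGFRα, was higher in both non-physiological flows. It had 107, 101 and 118 CPM in PSS, 153, 158 and 150 in HSS and 272, 127 and 252 in Vortex. In CPM all HSS and all Vortex libraries lay above PSS, and Vortex replicate 2 lay below HSS while the other Vortex libraries lay above it. Pdgfa rose in Vortex against PSS by 1.00 ± 0.27 on the log2 scale (1.99-fold, adjusted p = 0.0403). In FPKM Vortex replicate 2 (37.2) lay below PSS replicate 3 (38.5), and with library totals in place of TMM the call was lost (0.83, adjusted p = 0.0753).

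That call of Pdgfa was lost when any 1 of the other 8 libraries was left out, with adjusted p from 0.0788 to 0.139, and when only the 6 libraries compared were fitted (0.156). Without Vortex replicate 2, Pdgfa rose by 1.26 ± 0.12 in Vortex against PSS (adjusted p = 4.69e-05), by 0.49 ± 0.11 in HSS against PSS (0.00734) and by 0.77 ± 0.12 in Vortex against HSS (0.00205). With all 9 libraries the last 2 differences did not pass (0.49 ± 0.27 and 0.50 ± 0.27, adjusted p = 0.308 and 0.261).

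The PDGF receptors were read in this endothelial line. Pdgfra had 69.4 to 76.4 CPM in PSS, 68.0 to 73.4 in HSS and 467, 21.4 and 332 in Vortex. Vortex replicates 1 and 3 lay above and replicate 2 below all other libraries. The log2 difference of Pdgfra in Vortex against PSS was 1.91 ± 0.78 (adjusted p = 0.137) with all libraries, and without replicate 2 Pdgfra rose by 2.45 ± 0.15 (adjusted p = 3.72e-06). Pdgfrb, the receptor for PDGF-B, had 17.0 to 22.2 CPM in PSS, 33.6 to 36.7 in HSS and 21.9, 4.57 and 47.2 in Vortex, and did not pass with all libraries (HSS against PSS 0.79 ± 0.61, adjusted p = 0.495). None of the 5 other PDGF-family genes, Pdgfc, Pdgfd, Pdgfra, Pdgfrb and Pdgfrl, was called by edgeR with all 9 libraries in any comparison. At an unadjusted p under 0.05 there were 1, 2 and 1 of them in HSS against PSS, Vortex against PSS and Vortex against HSS, and DESeq2 called 0, 2 and 1 and limma-voom 0, 1 and 0. Leaving out Vortex replicate 2, Pdgfc and Pdgfrb rose and Pdgfd and Pdgfrl fell in HSS against PSS, Pdgfra and Pdgfrb rose and Pdgfd fell in Vortex against PSS, and Pdgfra and Pdgfrl rose in Vortex against HSS. In that fit 29.1%, 36.3% and 23.9% of all tested genes were called.

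Both receptors are also markers of pericytes and fibroblasts. The summed CPM of 12 markers of pericytes, smooth muscle and fibroblasts was 291 to 365 in PSS, 356 to 372 in HSS and 660, 64.2 and 602 in Vortex replicates 1 to 3. Pdgfra is 1 of these 12 and made up most of the sum in Vortex replicates 1 and 3. The sum of the other 11 was 215 to 293 in PSS, 288 to 302 in HSS and 193, 42.8 and 270 in Vortex replicates 1 to 3, so without Pdgfra no Vortex library lay above the PSS range. Col1a1, the largest of the 11, had 189 to 263 CPM in PSS and 124, 34.3 and 165 in Vortex. The marker Dcn went the other way in replicates 1 and 3. It had 3.55 to 4.78 CPM in PSS, 8.30 to 8.86 in HSS and 40.9, 0.381 and 44.9 in Vortex. In Vortex against PSS 1 of 9 tested markers of the 12 rose and none fell, where 13.4% of all tested genes were called. Without Vortex replicate 2, 4 of 11 tested rose and 1 fell, where 36.3% were called. The part of these markers in the receptor differences was not tested.

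**Figure D2:**
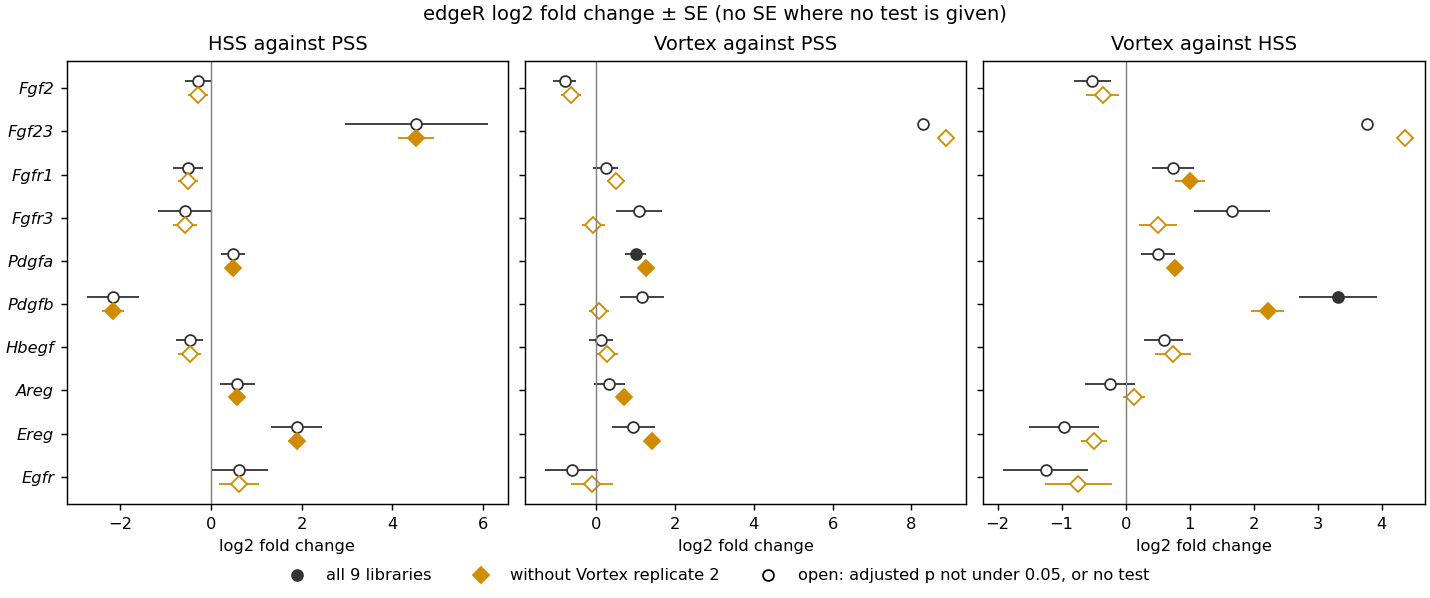
Log2 fold changes of the 10 genes (horizontal axis, bars are SE) in the 3 comparisons, fitted with all 9 libraries (circles) and without Vortex replicate 2 (diamonds), where filled symbols passed the test. In HSS against PSS both fits give nearly the same differences with shorter bars in the second, whereas in the Vortex comparisons Fgfr3 and Pdgfb move toward lower values when replicate 2 is left out.

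Ereg, encoding epiregulin, a ligand of EGFR and ERBB4, had the highest FPKM of the 10 genes in HSS. Its CPM was 152, 160 and 93.7 in PSS, 512, 492 and 505 in HSS and 388, 58.9 and 328 in Vortex. HSS lay above every other library, Vortex replicates 1 and 3 lay between PSS and HSS, and Vortex replicate 2 was the lowest of all. The 3.72-fold difference of Ereg in HSS against PSS (log2 1.89 ± 0.56) did not pass with all 9 libraries (adjusted p = 0.0754). Ereg rose in HSS (1.89 ± 0.19, adjusted p = 6.16e-05) and in Vortex (1.40 ± 0.20, 0.000621) against PSS once Vortex replicate 2 was left out. With all libraries Vortex differed from PSS by 0.93 ± 0.55 (adjusted p = 0.291) and from HSS by -0.96 ± 0.55 (0.295).

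Areg, encoding amphiregulin, a lower-affinity ligand of EGFR, was higher in all HSS libraries than in PSS and highest in Vortex replicate 3. It had 49.5, 48.8 and 41.0 CPM in PSS, 70.5, 66.1 and 71.1 in HSS and 61.9, 23.7 and 89.6 in Vortex. HSS lay above PSS without overlap, and Vortex replicates 1 and 3 lay above PSS while replicate 2 lay below it. Vortex replicate 1 lay below and replicate 3 above HSS. The log2 difference of Areg in HSS against PSS was 0.58 ± 0.39 (adjusted p = 0.424) with all libraries. In the fit without Vortex replicate 2, Areg rose in HSS (0.58 ± 0.15, adjusted p = 0.0190) and in Vortex (0.71 ± 0.17, 0.00967) against PSS. The difference of Vortex from PSS was 0.33 ± 0.39 (adjusted p = 0.616) and from HSS -0.25 ± 0.39 (0.726) with all libraries.

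Areg and Ereg are neighbours on mouse chromosome 5, between the EGF-family ligands Epgn and Btc, with 0 protein-coding genes between neighbours in RefSeq on GRCm38.p6. These 4 genes did not share 1 pattern. Btc, encoding betacellulin, had 11.8 to 15.3 CPM in PSS, 17.3 to 17.8 in HSS and 23.3, 10.2 and 24.6 in Vortex. Epgn, encoding epigen, had 1.23 to 2.27 CPM in PSS, 1.18 to 1.63 in HSS and 2.08, 4.96 and 2.27 in Vortex, so it was highest in Vortex replicate 2, where the other 3 were lowest of the 9 libraries. Neither Btc nor Epgn passed with all 9 libraries, and without that replicate Btc rose in Vortex against PSS (log2 difference 0.82 ± 0.16, adjusted p = 0.00293).

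Hbegf, encoding heparin-binding EGF-like growth factor, passed the test in no comparison with all 9 libraries. It had 59.4, 67.4 and 28.9 CPM in PSS, 40.4, 36.1 and 36.0 in HSS and 68.0, 44.9 and 57.4 in Vortex. PSS replicate 3 was the lowest of all 9 libraries while the other PSS libraries lay above HSS, and every Vortex library lay above every HSS library. Against PSS the log2 difference of Hbegf was -0.47 ± 0.30 in HSS (adjusted p = 0.404) and 0.13 ± 0.30 in Vortex (0.816), and Vortex differed from HSS by 0.60 ± 0.30 (0.245). None of these passed without Vortex replicate 2, where Vortex against HSS was 0.74 ± 0.28 (0.0845).

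Egfr itself was near the limit of detection. It had 9, 6 and 11 counts in PSS, 12, 9 and 17 in HSS and 7, 1 and 7 in Vortex. The groups overlapped between PSS and HSS and between PSS and Vortex, and the single count in Vortex replicate 2 was the lowest. The log2 differences were 0.62 ± 0.62 in HSS (adjusted p = 0.615) and -0.63 ± 0.67 in Vortex (0.580) against PSS, and -1.25 ± 0.66 in Vortex against HSS (0.258). No difference of Egfr was detectable at this depth.

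Of the other EGF-family receptors, Erbb2, the partner receptor with no ligand of its own, had 377 to 3163 counts per library, Erbb3 9 to 34 and Erbb4 0 to 3. Erbb2 had 44.5 to 61.6 CPM in PSS, 47.3 to 52.3 in HSS and 23.8, 151 and 35.8 in Vortex. With all libraries its log2 difference in Vortex against PSS was 0.44 ± 0.57 (adjusted p = 0.657), and without replicate 2 it had a called difference of -0.79 ± 0.20 (adjusted p = 0.0131). The sign of the Erbb2 difference thus depended on that library.

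Of 6 other EGF-family ligands tested, Tgfa, encoding TGF-α, was the 1 called with all 9 libraries. It rose in Vortex against PSS by 0.78 ± 0.21 (adjusted p = 0.0403), from 23.8 to 33.4 CPM in PSS to 43.5 to 63.0 in Vortex. There 13.4% of all tested genes were called. The Tgfa call was lost when only the 6 libraries compared were fitted, where 0 of the 6 ligands and 0.488% of all tested genes were called. Limma on log2 FPKM also called 0 of the 6 in Vortex against PSS, and DESeq2 and limma-voom each called 1. HSS libraries had 40.7 to 45.2 CPM of Tgfa, also above PSS, but this difference did not pass (0.53 ± 0.21, adjusted p = 0.165). Tgfa rose in both without Vortex replicate 2 (0.53 ± 0.15 and 0.62 ± 0.17, adjusted p = 0.0275 and 0.0176). In that fit 2 and 3 of the 6 rose in HSS and in Vortex against PSS, where 29.1% and 36.3% of all tested genes were called. Nrg1, encoding the ERBB3 and ERBB4 ligand neuregulin 1, rose in both against PSS in the same fit (0.81 ± 0.14 and 1.21 ± 0.16, adjusted p = 0.00228 and 0.000363) and passed in neither with all libraries (0.343 and 0.302).

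The proteases and brakes of EGFR signalling gave 3 calls over 2 comparisons. Between PSS and HSS, 1 of 11 rose and 1 fell, where 7.87% of all tested genes were called. Rhbdf1, an inactive rhomboid that carries ADAM17 to the cell surface, rose by 0.88 ± 0.22 (adjusted p = 0.0452), from 29.2 to 53.0 CPM in PSS to 72.7 to 78.1 in HSS. Lrig3, a leucine-rich repeat membrane protein, fell by 1.49 ± 0.28 (log2, adjusted p = 0.0155), from 10.5 to 17.6 CPM to 4.32 to 5.99.

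In Vortex against PSS, 1 of the 11 rose and none fell: Socs5, a suppressor that promotes EGFR degradation, by 0.69 ± 0.17 (adjusted p = 0.0278). There 13.4% of all tested genes were called. With only the 6 libraries compared, 0 of the 11 and 0.488% of all tested genes were called. In Vortex against HSS edgeR called 0 of 11, with 2 at an unadjusted p under 0.05 and 0 called by DESeq2 or limma-voom. Lrig1, which also lowers EGFR, had 180 to 257 CPM in PSS, 734 to 751 in HSS and 701, 149 and 778 in Vortex. Its log2 difference in HSS against PSS, 1.74 ± 0.49, did not pass with all libraries (adjusted p = 0.0674), and Lrig1 rose without Vortex replicate 2 (1.73 ± 0.14, adjusted p = 1.79e-05). In that fit 6 of the 11 rose and 1 fell in HSS against PSS, 5 rose and 1 fell in Vortex against PSS, and 1 rose and 1 fell in Vortex against HSS, where 29.1%, 36.3% and 23.9% of all tested genes were called.

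The number of the 10 genes called was set against that of all genes tested. In HSS against PSS edgeR called 0 of 10, where 7.87% of all tested genes were called. There were 3 of 10 at an unadjusted p under 0.05, DESeq2 called 3, and limma-voom and limma on log2 FPKM called 0. Leaving out Vortex replicate 2, 5 of 10 were called, where 29.1% of all tested genes were: Fgf23, Pdgfa, Areg and Ereg rose and Pdgfb fell. Fgf23 is counted among the 10 in this comparison, although the PSS libraries also entered its choice, so its part in these counts is a description. With only the 6 PSS and HSS libraries, 6 of 10 were called, where 40.8% of all genes were, the sixth being Fgfr1, which fell by 0.53 ± 0.17 (log2, adjusted p = 0.0419). For 7 of 10 genes the CPM ranges of HSS and PSS did not overlap, beside 56.2% of all tested genes. With 10 genes these counts lie near the background and are no result about the 10 as a group.

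In Vortex against PSS 1 of 9 was called (Pdgfa), where 13.4% of all genes were, and 3 of 9 without replicate 2 (Pdgfa, Areg and Ereg), where 36.3% were. In Vortex against HSS 1 of 9 was called (Pdgfb), where 7.04% of all genes were, and 3 of 9 without replicate 2 (Fgfr1, Pdgfa and Pdgfb), where 23.9% were. The CPM ranges did not overlap in 2 of 9 in Vortex against PSS, where 30.0% of all genes did not, and in 6 of 9 in Vortex against HSS, where 36.4% did not. The median log2 difference of the 10 genes was 0.11 in HSS against PSS, beside -0.0049 for all tested genes. That of the 9 was 0.33 in Vortex against PSS, beside 0.11, and 0.50 in Vortex against HSS, beside 0.10. The 3 comparisons share libraries in pairs and are not independent of each other.

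Each Vortex library was then set against the mean of PSS. Beside each gene stands the median of tested genes whose longest transcript lay within 1.5 percentage points of its GC content. In Vortex replicates 1 and 3 these medians were between -0.42 and 0.28 for the 10 genes. In replicate 2 they ran from -1.40 for genes like Ereg (39.2% GC) to 0.93 for genes like Pdgfb (60.0% GC).

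In replicate 2 Ereg differed from PSS by -1.16, against -1.40 for genes of like GC, and Fgf2 by -1.14, against -1.02. Fgf23 differed by 0.58, against 0.69. Pdgfb (2.27 against 0.93) and Fgfr3 (2.15 against 0.79) lay above their GC medians, and Fgfr1 (-0.50 against 0.74), Egfr (-1.78 against -0.63) and Areg (-0.96 against -0.02) lay below. Pdgfa differed by 0.22, against 0.49, and Hbegf by -0.12, against 0.43. So Ereg, Fgf2, Fgf23 and Pdgfa lay within 0.3 of genes of like GC in this library, and Pdgfb and Fgfr3 more than 1 above. Fgf23 had 6 counts in this library, against 2 to 4 in the PSS libraries, and Egfr had 1. The values of Fgf23 and Egfr are thus near the limit of detection and imprecise. The part of GC content in these differences was not tested.

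**Figure D3:**
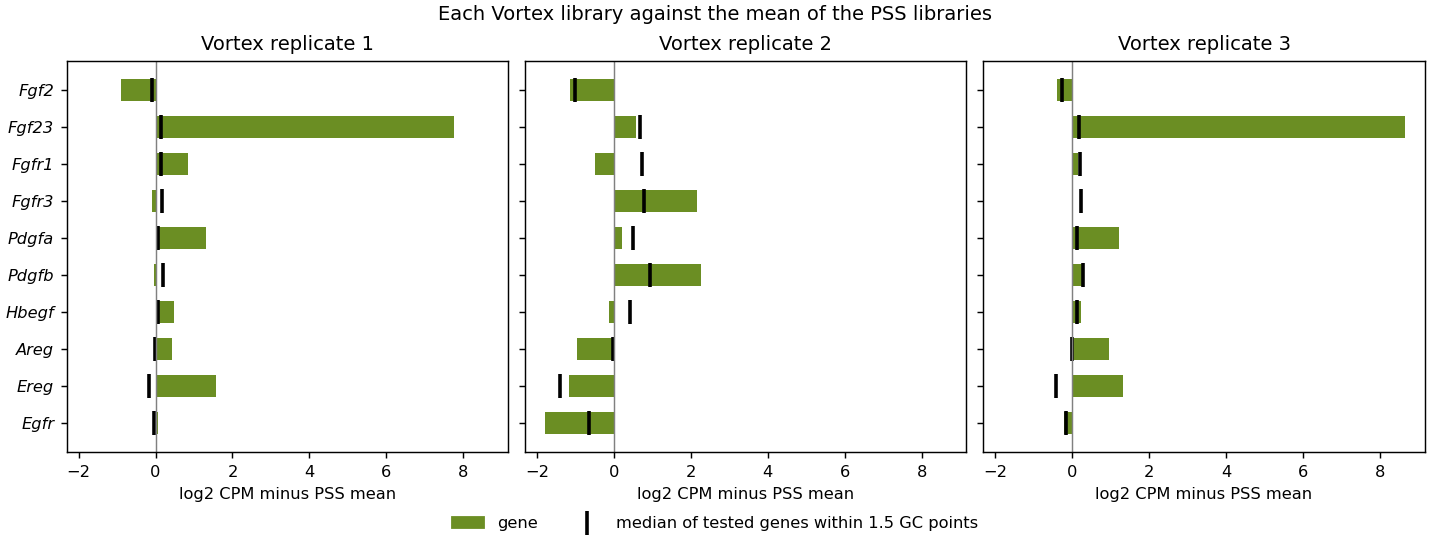
Log2 CPM of each of the 10 genes in each Vortex library minus the PSS mean (green bars), with a black mark at the median of tested genes of like GC content. In replicates 1 and 3 Fgf23 stands 7.76 and 8.64 above PSS and the marks stay near 0, whereas in replicate 2 Fgf23 stands at 0.58 and the marks range from -1.40 to 0.93.

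Downstream, 20 ERK-induced targets and feedback inhibitors were tested, and they split in both directions. From PSS to HSS 2 rose and 3 fell, where 4.18% of all tested genes rose and 3.70% fell. Spry1, a Sprouty feedback inhibitor of receptor tyrosine kinase signalling, fell from 32.7 to 55.6 CPM in PSS to 6.50 to 8.49 in HSS (log2 difference -2.59 ± 0.26, adjusted p = 0.00141). Il17rd, also known as Sef, another FGF pathway inhibitor, fell from 68.5 to 99.9 CPM to 22.6 to 23.2 (-1.93 ± 0.19, adjusted p = 0.00142). Spry4, chosen for mention after its value was seen, fell by 1.07 ± 0.26 (log2, adjusted p = 0.0377).

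The genes that rose in HSS were the AP-1 subunit gene Fosl1 (1.70 ± 0.30, adjusted p = 0.0118) and the early response gene Ier3 (1.24 ± 0.23, adjusted p = 0.0153). Fosl1 had 7.96 to 15.8 CPM in PSS, 38.9 to 47.7 in HSS and 29.2 to 47.4 in Vortex. Ier3 had 186 to 237 CPM in PSS, 475 to 487 in HSS and 374 to 707 in Vortex. In both genes PSS lay below every other library.

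In Vortex against PSS 4 of the 20 rose and 2 fell, where 8.33% of all tested genes rose and 5.03% fell. Spry1 and Il17rd fell (-1.84 ± 0.25 and -1.77 ± 0.19, adjusted p = 0.00432 and 0.00234), and Fosl1 and Ier3 rose (1.59 ± 0.30 and 1.39 ± 0.24, adjusted p = 0.0112 and 0.00775). Spry1 and Il17rd had like values in the 3 Vortex libraries: 12.0, 12.2 and 14.7 CPM of Spry1, and 24.5, 24.6 and 27.6 of Il17rd. The ETS factor gene Etv4 also rose (1.08 ± 0.19, adjusted p = 0.00936), from 33.0 to 48.8 CPM to 78.5 to 98.2, as did Phlda1 (0.94 ± 0.25, 0.0362), which was chosen for mention after its value was seen. When only the 6 libraries compared were fitted, 0 of the 20 rose and 1 fell, where 0.488% of all tested genes were called.

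From HSS to Vortex 2 of the 20 rose and none fell, where 4.37% of all tested genes rose and 2.67% fell: Etv4 (1.52 ± 0.20, adjusted p = 0.00825) and Dusp4, a phosphatase of ERK (1.22 ± 0.24, adjusted p = 0.0220). Etv4 had 30.8 to 31.2 CPM in HSS, below the other groups, and Dusp4 had 108 to 111 CPM in HSS, 125 to 243 in PSS and 246 to 270 in Vortex. When Vortex replicate 2 was left out, 5 rose and 7 fell in HSS against PSS, 8 rose and 2 fell in Vortex against PSS, and 5 rose and none fell in Vortex against HSS. In that fit 29.1%, 36.3% and 23.9% of all tested genes were called. With all 9 libraries the median log2 difference of the 20 was -0.20, 0.28 and 0.23 in these 3 comparisons, beside -0.0049, 0.11 and 0.10 for all tested genes.

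Among 19 adaptors and kinases of the RAS-ERK cascade, the 1 gene called was the docking protein gene Gab2, which rose in Vortex against PSS (1.14 ± 0.21, adjusted p = 0.0107), from 9.19 to 12.8 CPM to 22.3 to 27.9. There 13.4% of all tested genes were called. With only the 6 libraries compared, 0 of the 19 and 0.488% of all tested genes were called in Vortex against PSS. From PSS to HSS edgeR called 0 of 19, with 2 at an unadjusted p under 0.05 and 0 called by DESeq2 or limma-voom. In Vortex against HSS edgeR also called 0, with 3 at an unadjusted p under 0.05, 2 called by DESeq2 and 0 by limma-voom. Leaving out Vortex replicate 2, 4 rose and none fell in HSS against PSS, 7 rose and 1 fell in Vortex against PSS, and 3 rose and none fell in Vortex against HSS, beside 29.1%, 36.3% and 23.9% of all tested genes.

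**Figure D4:**
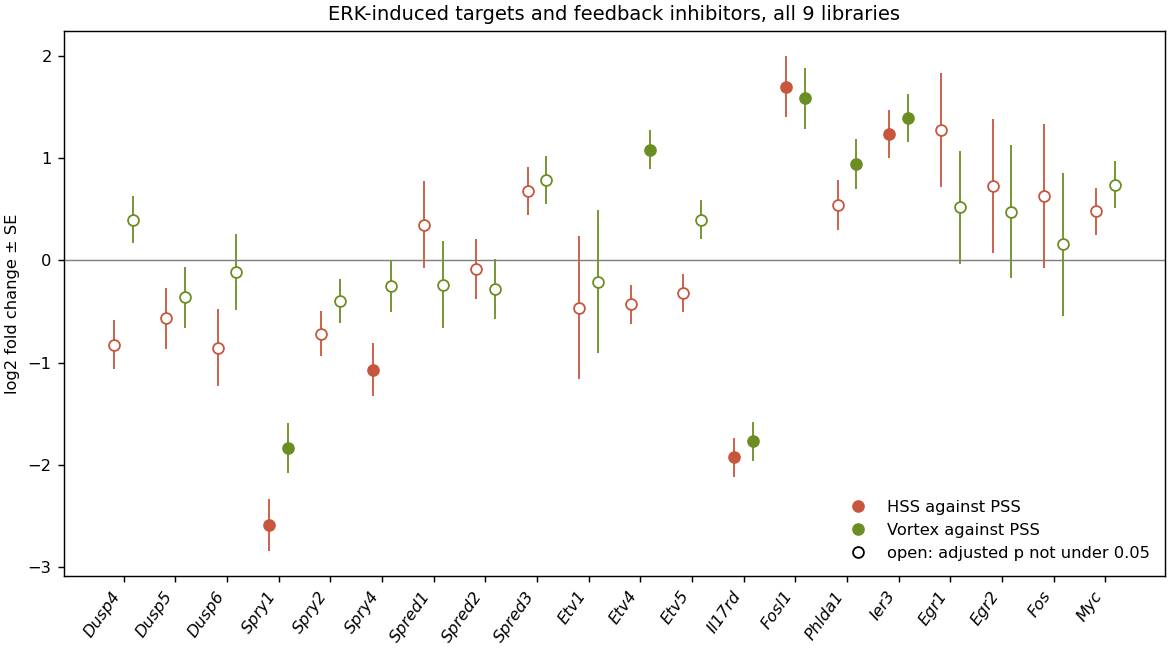
Log2 fold changes (vertical axis, bars are SE) of the 20 tested ERK-induced targets and feedback inhibitors in HSS and in Vortex against PSS, all 9 libraries, where filled points passed the test. Spry1 and Il17rd lie between -2.59 and -1.77 in both comparisons and Fosl1 and Ier3 between 1.24 and 1.70, while Etv4 is filled in Vortex alone.

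The defining markers of leukocytes and of epithelium, Ptprc and Epcam, were at or near 0. The leukocyte marker Ptprc had 0 or 1 counts in every library and the epithelial marker Epcam 0 to 2. The summed CPM of 9 leukocyte markers in the table was 7.02 to 7.96 in PSS, 22.3 to 25.6 in HSS and 22.3 to 56.1 in Vortex. That of 9 epithelial markers was 7.53 to 8.81 in PSS, 5.55 to 6.22 in HSS and 12.7, 6.96 and 22.1 in Vortex replicates 1 to 3. Of the leukocyte markers 3 passed the filter, and 1 rose in HSS and 2 rose in Vortex against PSS. In those comparisons 7.87% and 13.4% of all tested genes were called. Of the 2 that rose in Vortex, Cd68, a macrophage lysosomal protein gene, had 3.69 to 4.96 CPM in PSS, 5.26 to 5.71 in HSS and 33.2, 7.96 and 36.6 in Vortex. The marker Csf1r had 1.36 to 2.79 CPM in PSS, 15.8 to 18.9 in HSS and 17.1, 13.1 and 8.64 in Vortex. Of the epithelial markers 4 passed the filter, and the keratin gene Krt19 rose in Vortex against PSS (log2 difference 2.05, adjusted p = 0.0332). With only the 6 libraries compared, edgeR called 0 leukocyte and 0 epithelial markers in Vortex against PSS, where 0.488% of all tested genes were called. Without Vortex replicate 2, 1 of 3 leukocyte markers rose in HSS and 2 rose in Vortex against PSS. Of 4 epithelial markers 1 fell in HSS and 2 rose in Vortex against PSS in that fit, where 29.1% and 36.3% of all tested genes were called. The part of these markers in the growth factor differences was not tested.

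Genes with the most similar profile were ranked by the root mean square difference of centred log2 CPM over the 9 libraries, among 13334 candidates. Nearest to Fgf23 were Wfdc17 (1.07), Sprr2e (1.11) and the collagenase gene Mmp13 (1.14). Mmp13 had 7.22 to 8.51 CPM in PSS, 138 to 141 in HSS and 669, 3.76 and 335 in Vortex replicates 1 to 3, so Vortex replicate 2 was at its lowest level, as it was among Vortex libraries for Fgf23. Fgf23 itself had an SD of 3.35 in log2 CPM over the 9 libraries.

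Nearest to Pdgfb were the kinase gene Rps6ka2 (0.18), Bmp6 (0.23) and Dhh (0.27), encoding a BMP and a hedgehog ligand, all highest in Vortex replicate 2 and lowest in HSS. Nearest to Ereg were Sema4a (0.23), Sync (0.25) and Cobll1 (0.25), and to Pdgfa Ube2e2 (0.09), Maoa (0.12) and Ubap1 (0.12). Per3 (0.13) and Ahr (0.14) were among the 3 nearest to Areg. Nearest to Fgfr3 were Arhgap27 (0.17), Smtn (0.18) and Podxl (0.22), to Fgfr1 Afdn (0.13), and to Hbegf Fzd7 (0.13). These likenesses rest on 9 libraries that share the groups and the departure of Vortex replicate 2.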

How the data were processed

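The 9 RNA-seq samples of bEnd.3 cells were grouped by the labels. Per the labels' protocols, libraries were made with a NEBNext Ultra kit, and the submitters' processing notes name HISAT2, HTSeq 0.13.5 and the build GRCm39. Whether counting used strand is not stated in those notes or labels. The authors deposited unnormalized counts per gene and library. The deposited FPKM values fit the counts with 1 length per gene in 100% of 27767 genes (relative tolerance 1e-06). There were 17407217 to 22965802 counts per library, and counting intervals cover counting error only.

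In R 4.3.3, edgeR 4.0.16 was run on all 9 libraries with filterByExpr (15774 genes kept), TMM scaling and robust quasi-likelihood tests, 1 mean per group, with p-values adjusted by Benjamini and Hochberg's method across those genes and a threshold of 0.05. The common biological coefficient of variation was 0.350. The SE was computed from the log2 fold change and the F statistic (absolute value over the root of F), and log2 CPM uses a prior count of 2. limma 3.58.1 and DESeq2 1.42.0 were alternatives. On simulated counts for 15774 genes, 5%, 6% and 5% of genes changed 2-fold and 48%, 62% and 67% of those changed 4-fold were recovered in HSS against PSS, Vortex against PSS and Vortex against HSS, with 1, 3 and 6 false calls. Apart from the planted changes, each gene had 1 mean and 1 dispersion in all 9 simulated libraries. No outlying library and no GC trend were simulated, so these rates do not measure error in the real libraries.

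GC content came from the longest annotated transcript, for 98.5% of tested genes. No reference coordinates other than those of the printed RefSeq windows on GRCm38.p6 are given. The 10 genes and the lists of related genes and markers were chosen with earlier results of these data known. All 10 genes and any relative in the 3 families may be named, and of each other list the 3 genes with the smallest p in a comparison, as well as the 3 genes nearest in profile. Of 96 genes on the pathway lists 86 were in the table and 72 were tested. The alternatives with GC trend removal were chosen after seeing the data.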

Additional observations from a re-analysis of the deposited data

How the results depend on the processing

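Counts of all called genes moved most with the libraries kept in the fit. They were 1242 in HSS against PSS, 2107 in Vortex against PSS and 1111 in Vortex against HSS. In the same order, the DESeq2 Wald test gave 2456, 3489 and 2700, fitting only the 6 libraries compared gave 6233, 74 and 66, and removing the GC trend together with Vortex replicate 2 gave 4840, 6093 and 4262. Keeping all genes with at least 1 count gave 713 in Vortex against HSS. Leaving out 1 library at a time gave 285 to 4730, 519 to 5888 and 25 to 3887, each highest without Vortex replicate 2. With the replicate number as a block there were 772, 1258 and 357 calls. The numbers were not taken as pairs: the correlation of same-numbered deviations ran from -0.12 to 0.12.

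Of the 10 genes, 0 were called in HSS against PSS, 3 by DESeq2, 2 with the GC trend removed (Pdgfb and Ereg, adjusted p = 0.0125 and 0.0173), 7 with that and without Vortex replicate 2, 6 with the 6 libraries alone and 0 to 5 with 1 library left out. Pdgfb also passed there without Vortex replicate 1 (adjusted p = 0.0198). Of the 9 in Vortex against PSS, the 1 call became 0 with library totals, with genes of at least 1 count, with the replicate block, with limma-voom, with a pseudocount of 0.1 on FPKM, with 6 libraries and with the GC trend removed, became 2 by DESeq2 and 3 with the GC trend and Vortex replicate 2 both removed, and ranged from 0 to 3 with 1 library left out. With a pseudocount of 1 on FPKM the 1 call in Vortex against PSS was Fgf2, and Pdgfa did not pass. In Vortex against HSS, the 1 call became 2 by DESeq2, 0 with 6 libraries, 3 with the GC trend and Vortex replicate 2 both removed, and 0 to 3 with 1 library left out.

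Among the 10 genes, the differences called with all 9 libraries (Pdgfa in Vortex against PSS and Pdgfb in Vortex against HSS) kept their sign in every alternative run. Of those not called with all 9, in Vortex against PSS Fgfr1 became -0.0064 on FPKM with a pseudocount of 0.1, -0.21 without Vortex replicate 1 and -0.026 with the GC trend removed. Fgfr3 became -0.075 without Vortex replicate 2 and -0.30 with the GC trend also removed, where Pdgfb became -0.14. Hbegf became -0.052 with library totals, -0.16 without PSS replicate 3, -0.061 without Vortex replicate 1 and -0.023 with the GC trend removed. Areg became -0.029 and -0.035 on FPKM with pseudocounts of 1 and 0.1 and -0.13 without Vortex replicate 3, while it passed at 0.71 without Vortex replicate 2. In Vortex against HSS Areg became 0.13 without Vortex replicate 2 and 0.11 with the GC trend also removed. Over the 9 fits with 1 library left out these differences reached, at the other end, 0.50 for Fgfr1, 1.43 for Fgfr3, 0.36 for Hbegf and 0.71 for Areg in Vortex against PSS and -0.69 for Areg in Vortex against HSS. Library totals without TMM moved the median log2 difference of all genes by -0.17 in Vortex against PSS and -0.14 in Vortex against HSS. Except where the construction left fewer libraries, the cause was not tested.

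For single genes of the lists, log2 differences of alternative fits are given only for the fit without Vortex replicate 2. Together the pathway lists gave 8, 10 and 2 calls among 72 tested, where 7.87%, 13.4% and 7.04% of all tested genes were called. With the 6 libraries compared they gave 40, 1 and 2 among 72, 72 and 71 tested, where 40.8%, 0.488% and 0.438% were. With 1 library left out they gave 2 to 33, 4 to 37 and 0 to 16. The highest of these came without Vortex replicate 2, where 29.1%, 36.3% and 23.9% of all tested genes were called. Depth limits what can be said of Egfr (1 to 17 counts per library), of Fgf23 in PSS (2 to 4) and of Klotho.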
